A study of Homo sapiens with 208 samples.

Results

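The nuclear-encoded genes of the mitochondrial respiratory chain were examined in PC9 cells and their gefitinib-resistant derivative PC9M2. Members were chosen by symbol, as NDUFA, NDUFB, NDUFC, NDUFS and NDUFV subunits of complex I, SDHA to SDHD of complex II, UQCR subunits of complex III, COX4 to COX8 subunits of complex IV, and ATP5F, ATP5M and ATP5P subunits of complex V. This gave 81 of the 16961 genes with a named probe, measured by 111 probes, of which 36 belonged to complex I, 4 to complex II, 8 to complex III, 16 to complex IV and 17 to complex V. Of these, 80 passed the filter on dim probes and were tested among 13261 genes. COX7A1, the muscle and heart form of a complex IV subunit, was the member that did not pass, and it was well above background on 0 to 2 of the 26 arrays of a course.

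The respiratory chain lies in the inner mitochondrial membrane. Complexes I and II feed electrons from NADH and succinate into ubiquinone, complex III passes them to cytochrome c, and complex IV reduces oxygen. The protons pumped by complexes I, III and IV return through complex V, the ATP synthase, which makes ATP. Most subunits are encoded in the nucleus and must be made in step with the few encoded by mitochondrial DNA, and nuclear factors such as NRF1, the ETS factor GABP, YY1 and the oestrogen-related receptors are known to act on their promoters.

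PC9 is a human non-small cell lung cancer line whose EGF receptor carries an activating deletion, which makes it sensitive to the EGF receptor kinase inhibitor gefitinib. PC9M2 was derived from PC9 by long culture in gefitinib, and is 1 clone. Both lines were starved for 48 h and then left untreated, given 0.5 µM gefitinib ahead of the 0 h sample, given 100 ng/ml EGF, or given both. RNA was measured on 1-colour arrays at 26 time points from 0 to 24 h, which makes 8 courses and 208 arrays, with 1 array at each time point.

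Separate cultures are not stated, so the 26 time points of each course served in place of replicates and p-values measure only the spread between these arrays. Arrays sum over all cells of a dish, so that fewer cells of a kind and less RNA per cell cannot be told apart. The number of features well above background lay between 24464 and 35938 per array. Each of the 52 slides held the 4 treatments of 1 line at 1 time, always in the same positions, so treatment and slide position cannot be told apart. No slide (0) and no scan day (0) held both lines, so line and scan day cannot be told apart. On PC9 arrays 183 to 1616 features were saturated, against 0 on PC9M2 arrays, and 27 of the 80 tested members were saturated on some PC9 array. All 6 epithelial markers looked for passed the filter. Of 7 markers of blood, endothelium and fibroblasts with a probe, 4 passed it. With gefitinib the log2 differences in PC9 and PC9M2 were 1.76 and 1.08 for VWF, -0.18 and 0.59 for PECAM1 and -0.08 and 0.09 for CD3E, of which those of CD3E did not pass limma's test. Values are given for 3 of the 4. The part of these markers in the results below was not tested. As a check of the drug, DUSP6, a phosphatase induced by ERK signaling, fell (-6.81 in PC9 and -2.16 in PC9M2). It had the largest fall of 10 listed ERK feedback genes in both lines. Over these 10 the median was -3.34 in PC9, where 10 passed as lower. In PC9M2 the median was -0.85, 8 passed as lower, 0 passed as higher and the highest value was 0.59.

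Upstream sequences are shown for 3 members that led the gefitinib results described below. NDUFA5, the complex I gene with the largest rise, stands beside ATP5MC1 and ATP5MK, the complex V genes with the largest falls in PC9. Each is the 250 bases before the RefSeq start site in GRCh38.p14, read 5′ to 3′ on the strand of the gene. Capitals mark matches, on either strand, to the motifs searched. NDUFA5 lies at chr7:123601612-123601861 on the minus strand, and its capitals are the oestrogen-related receptor motif AAGGTCA read on the other strand. ATP5MC1 lies at chr17:48892537-48892786 on the plus strand, and its capitals are the CREB motif TGACGTC on both strands, overlapping. ATP5MK lies at chr10:103396476-103396725 on the minus strand, and its capitals are the ETS motif CCGGAA on both strands, overlapping, and the SP1 motif GGGCGG at 2 places.
NDUFA5: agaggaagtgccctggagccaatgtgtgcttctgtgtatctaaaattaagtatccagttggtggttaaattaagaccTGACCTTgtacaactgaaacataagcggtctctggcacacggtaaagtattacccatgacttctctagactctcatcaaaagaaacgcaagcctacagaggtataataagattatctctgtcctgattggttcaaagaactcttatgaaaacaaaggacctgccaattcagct
ATP5MC1: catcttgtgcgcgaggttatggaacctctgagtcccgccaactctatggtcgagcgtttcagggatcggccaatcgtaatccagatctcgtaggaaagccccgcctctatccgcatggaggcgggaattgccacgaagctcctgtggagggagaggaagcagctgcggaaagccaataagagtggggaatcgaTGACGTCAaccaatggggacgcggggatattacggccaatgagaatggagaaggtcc
ATP5MK: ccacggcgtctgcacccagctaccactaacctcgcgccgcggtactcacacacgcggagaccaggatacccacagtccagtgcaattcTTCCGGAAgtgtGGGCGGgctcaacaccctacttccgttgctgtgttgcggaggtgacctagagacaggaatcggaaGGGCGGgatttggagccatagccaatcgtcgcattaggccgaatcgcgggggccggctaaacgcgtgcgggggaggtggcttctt

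Promoters of 67 of the 81 members were matched in the RefSeq table, each as a 300-base window around the start site. The ETS motif was present in 29 of them (43.3%), against 17.2% of all 35116 promoters. YY1 (AAGATGG) was found in 17 (25.4%, against 5.84%), the NRF1 core (GCATGCG) in 11 (16.4%, against 3.91%) and the oestrogen-related receptor motif in 11 (16.4%, against 3.92%). These shares lay above those of all promoters, and a match is a string of letters, not a shown binding site. The CREB motif was in 7 (10.4%, against 3.45%), the MYC E-box (CACGTG) in 7 (10.4%, against 7.26%) and SP1 in 41 (61.2%, against 45%). Members were also slightly richer in G and C, with a median of 61% against 58.7%. The ETS motif was present in 3 of 3 matched complex II genes, 4 of 7 in complex III, 8 of 13 in complex IV and 8 of 13 in complex V. In complex I it was present in 6 of 31.

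The mean level of the 80 tested members moved little with treatment. In untreated PC9 cells the mean log2 intensity, with each gene centred first, was lowest at 12.91, had a median of 13.30 and was highest at 13.52. With gefitinib the PC9 values were 12.87, 13.29 and 13.51. The courses overlapped almost wholly. In PC9M2 the untreated values were 12.87, 13.27 and 13.38, and the gefitinib values were 12.74, 13.21 and 13.41. The gefitinib minus untreated difference, averaged over members at each time point, was -0.02 in PC9 (SD 0.13, n = 26 time points, above 0 at 13) and -0.08 in PC9M2 (SD 0.10, n = 26, above 0 at 4). With EGF present these differences were 0.04 (SD 0.07, above 0 at 20 of 26) and -0.09 (SD 0.11, above 0 at 3 of 26).

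**Figure D1:**
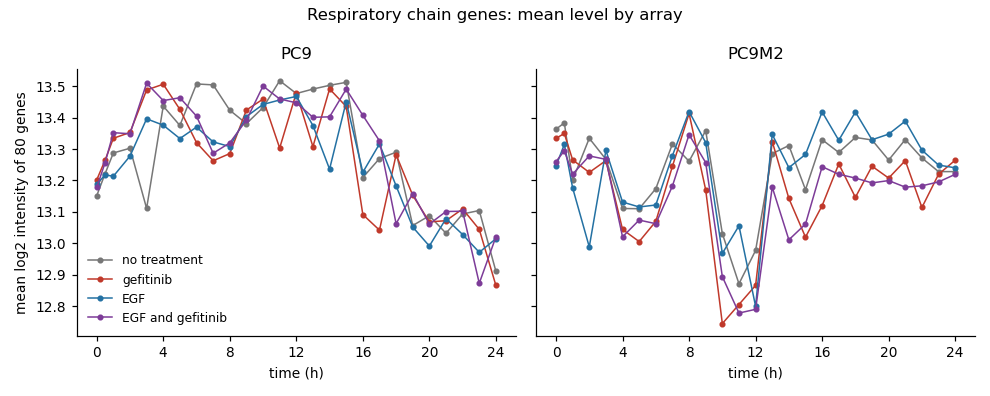
Mean log2 intensity of the 80 tested members (y axis) against hours after the start of the course (x axis), for PC9 and PC9M2, with 1 line per treatment and 1 point per array. The 4 courses of a line run together, PC9 is lowest at 23 or 24 h, and in PC9M2 all 4 courses dip at 10 to 12 h.

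In PC9M2 the member mean was lowest at 10, 11 or 12 h in all 4 treatments, and the arrays of these 3 time points shared a scan day. Without them the mean gefitinib difference was -0.02 in PC9 and -0.07 in PC9M2.

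Behind these small shifts of the mean, single members rose and fell. In PC9, 49 of 80 members passed the test with gefitinib (limma, Benjamini-Hochberg adjusted p under 0.05), where 72.2% of all tested genes did. Of these, 21 were higher and 28 lower (background 34.8% and 37.4%), with a median difference over members of -0.05 against -0.03 over all genes. In PC9M2, 44 members passed, against 66.5% of all genes, 9 higher and 35 lower (background 32.5% and 34%), with medians of -0.08 and -0.01. The median size of the difference, in either direction, was 0.19 over members against 0.44 over all genes in PC9, and 0.16 against 0.32 in PC9M2. With EGF present, 59 members passed in PC9 (32 higher and 27 lower, background 78.9% in all, 38.9% higher and 40% lower) and 56 in PC9M2 (17 higher and 39 lower, background 74.4%, 36.5% and 38%).

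The gefitinib effects of members were then compared between the lines. In both lines alike 34 members were called with the same sign, and 0 with opposite signs. The 34 were 69.4% of those called in PC9 and 77.3% of those called in PC9M2. Of the 34, 9 were higher in both, where the background over all genes was 27.2%. The other 25 were lower in both, where it was 28.8%. Over all tested genes 9576 were called in PC9 and 8825 in PC9M2, with 3612 higher in both lines and 3818 lower in both. Members thus shared calls no more often than genes in general. With EGF present, ATP5MF and NDUFC1 were called in opposite directions. Members called in all 4 gefitinib comparisons numbered 9 higher (background 25.9%) and 18 lower (background 26.5%). Those higher included NDUFA2 and NDUFA5 of complex I, SDHA of complex II, UQCRB and UQCRC2 of complex III, COX7A2L of complex IV and ATP5MC2 of complex V. The comparisons with and without EGF used different arrays on the same slides.

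**Figure D2:**
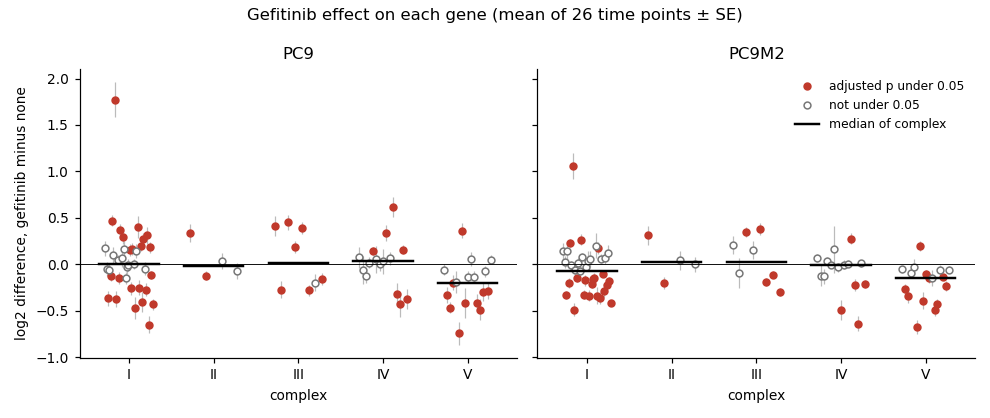
Gefitinib minus untreated log2 difference of each tested member (y axis, mean of 26 time points with standard error bars) in complexes I to V (x axis) for PC9 and PC9M2, with filled points for an adjusted p under 0.05 and a bar at the median of each complex. NDUFA5 stands far above all others at 1.77 and 1.06, and most complex V genes lie below 0.

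Complex I, the largest complex, held both the largest rise and several falls. In PC9 11 of its 36 genes rose and 12 fell (over all genes 34.8% rose and 37.4% fell), and in PC9M2 4 rose and 17 fell (32.5% and 34%). The PC9 shares were near those of all genes. NDUFA5, an accessory subunit of the arm that carries electrons to ubiquinone, was the member that changed most. Its untreated log2 intensity in PC9 ran from 8.37 to 10.76 with a median of 9.58, and with gefitinib from 9.90 to 11.94 with a median of 11.51. In PC9M2 it ran from 9.61 to 12.09 (median 11.27) untreated and from 11.42 to 13.34 (median 12.05) with gefitinib. The ranges overlapped in both lines, while the medians were apart. The paired difference was 1.77 ± 0.19 (SE, n = 26 time points, adjusted p = 3.98e-09, higher at 25 of 26) in PC9 and 1.06 ± 0.14 (SE, n = 26, adjusted p = 2.43e-07, higher at 24 of 26) in PC9M2. A second NDUFA5 probe gave 1.37 in PC9 and 0.86 in PC9M2. With EGF the differences were 1.81 and 1.29.

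Other complex I genes moved less. NDUFA2, an accessory subunit of the NADH-binding module, was higher by 0.47 ± 0.06 (SE) in PC9 at 26 of 26 time points and by 0.23 ± 0.04 in PC9M2 at 24 of 26. NDUFB10, in the membrane arm, was higher by 0.29 and 0.27. NDUFA9, at the junction of the arms, differed by 0.37 in PC9 and 0.02 in PC9M2, and only the former passed. NDUFV3, a small accessory subunit of the NADH-binding module, fell, with a difference of -0.43 ± 0.06 (SE) in PC9 and -0.42 ± 0.04 in PC9M2 and was higher at 0 of 26 time points in both. Its untreated PC9 values ran from 11.92 to 13.00 (median 12.62) and its gefitinib values from 11.40 to 12.65 (median 12.28). NDUFS8, an iron-sulfur core subunit, fell (-0.65 in PC9 and -0.23 in PC9M2), and NDUFS3, a core subunit, fell (-0.41 and -0.36). NDUFA6, a small accessory subunit, fell (-0.37 and -0.49). NDUFB9, in the membrane arm, gave -0.47 and -0.16 and passed, but its probe was saturated on 80 of 104 PC9 arrays. Its second probe, saturated on 87 arrays, gave 0.01 in PC9 (higher at 15 of 26 time points), and scaling to the 75th percentile turned the PC9 value of the first to 0.13.

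**Figure D3:**
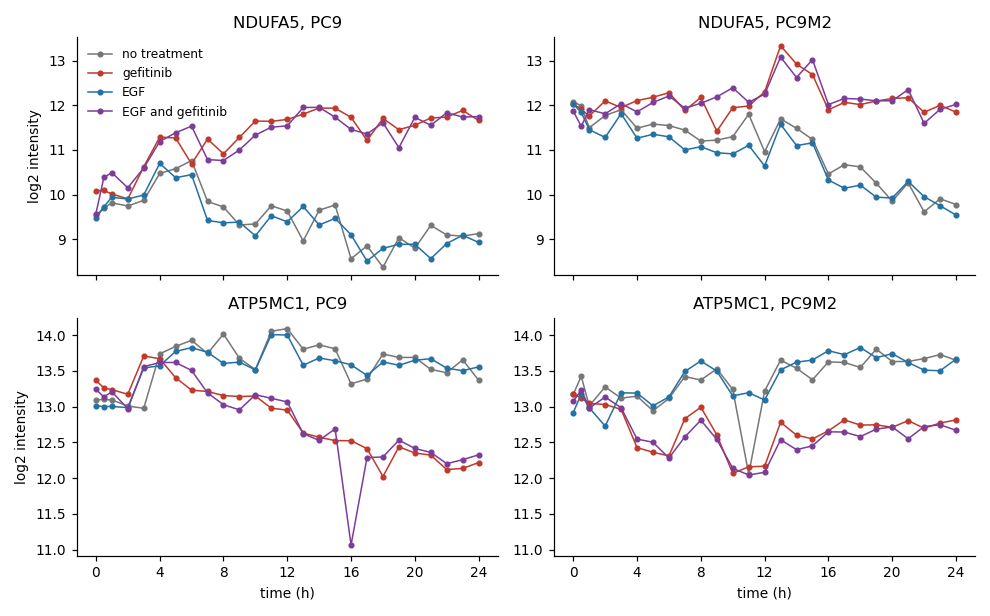
Log2 intensity of NDUFA5 and of ATP5MC1 (y axes) against hours (x axes) in both lines, with 1 line per treatment and 1 point per array. From 12 to 24 h the gefitinib courses lie above the untreated and EGF courses for NDUFA5 and below them for ATP5MC1, and early in the course they overlap. Single arrays dip for ATP5MC1, at 11 h in untreated PC9M2 and at 16 h in PC9 with both agents.

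Complexes II and III each held genes that rose and genes that fell. SDHA, the flavoprotein that oxidises succinate, rose by 0.33 ± 0.10 (SE) in PC9 and 0.31 ± 0.10 in PC9M2. SDHB, the iron-sulfur subunit, fell (-0.12 in PC9 and -0.20 in PC9M2), while the membrane anchors SDHC (0.03 and 0.04) and SDHD (-0.07 and -0.00) did not pass in either line. In complex III the core subunit UQCRC2 rose by 0.39 ± 0.07 and 0.38 ± 0.07, and UQCRB, which binds ubiquinone, by 0.45 ± 0.08 and 0.35 ± 0.06. UQCR10, a small subunit, gave 0.41 in PC9, which passed, and 0.21 in PC9M2, which did not. Its brighter second probe gave 0.10 ± 0.08 and -0.11, which ended the PC9 call and turned the sign in PC9M2. UQCRFS1, the Rieske iron-sulfur protein, fell (-0.28 and -0.19), and the small subunit UQCRQ also fell (-0.16 and -0.30). UQCR11 fell by 0.27 in PC9, and its difference of -0.10 in PC9M2 did not pass. With EGF present, UQCR11 was called lower with gefitinib in both lines, so its fall was not limited to PC9. In all, 4 of 8 complex III genes rose and 3 fell in PC9, and 2 rose and 3 fell in PC9M2, where the shares over all genes were 34.8% and 37.4%, and 32.5% and 34%.

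Complex IV genes moved in both directions, with 4 of 15 rising and 3 falling in PC9 and 1 rising and 4 falling in PC9M2, beside shares over all genes of 34.8% and 37.4%, and 32.5% and 34%. COX7A2L, which takes part in joining complexes III and IV into supercomplexes, ran from 10.87 to 12.76 (median 12.06) untreated and from 11.40 to 13.41 (median 12.68) with gefitinib in PC9. It rose by 0.61 ± 0.11 (SE, higher at 22 of 26) in PC9 and by 0.28 ± 0.06 (higher at 22 of 26) in PC9M2, and its second probe gave 0.61 and 0.29. COX7B2, a form known from testis, fell (-0.43 ± 0.13 in PC9 and -0.64 ± 0.08 in PC9M2), and its paralogue COX7B fell (-0.32 and -0.22). COX8A, a small subunit, fell (-0.37 and -0.22). COX6C rose by 0.34 in PC9 and had a difference of -0.00 in PC9M2. COX6B2, the testis form of COX6B, had a difference of 0.03 in PC9 and fell by 0.49 in PC9M2, from a probe near background. Of the other paralogues, COX4I1 (0.07 in both lines), COX4I2 (-0.06 and -0.12), COX6A2 (0.05 and 0.16), COX6B1 (-0.00 and -0.03) and COX7A2 (0.06 and 0.01) did not pass in either line. COX6A1 rose by 0.14 in PC9, with -0.01 in PC9M2, from a probe saturated on 91 of 104 PC9 arrays.

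In complex V more genes fell with gefitinib than rose. The median difference over them was -0.20 in PC9 and -0.14 in PC9M2, beside -0.00 and -0.07 in complex I, -0.02 and 0.02 in complex II, 0.01 and 0.03 in complex III and 0.03 and -0.01 in complex IV. The gefitinib difference averaged over its 17 genes was -0.22 (SD 0.20, n = 26 time points, above 0 at 2) in PC9 and -0.20 (SD 0.13, n = 26, above 0 at 2) in PC9M2. It was lowest at -0.56 at 17 h and highest at 0.30 at 3 h in PC9. With EGF present it was -0.15 and -0.25, above 0 at 2 of 26 time points in each line. Within scan days it ran from -0.41 to -0.03 in PC9, below 0 on 8 of 8, and from -0.34 to 0.00 in PC9M2, below 0 on 8 of 9. No p-value is given for this mean. For ATP5F1E and ATP5MG the probes used gave -0.19 and -0.14 in PC9 and did not pass. Their brighter probes, saturated on 93 and 101 PC9 arrays, gave 0.17 and 0.21 in PC9 and -0.11 and -0.02 in PC9M2. Of 27 members with several probes, over all complexes, 7 disagreed in sign for gefitinib in PC9.

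**Figure D4:**
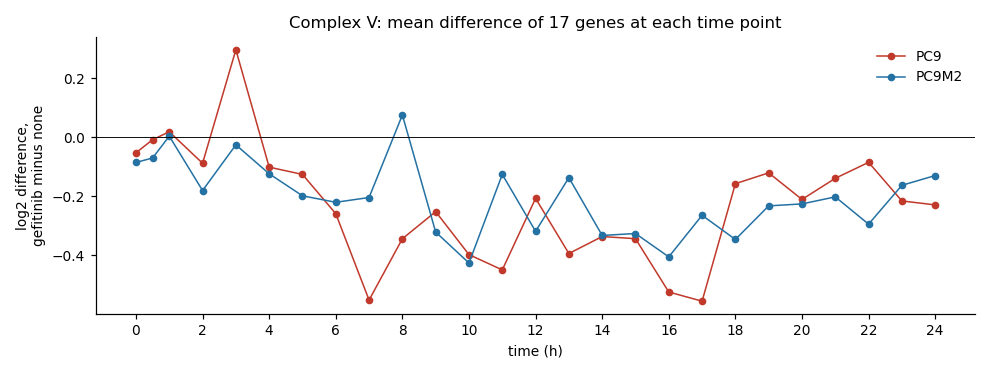
Gefitinib minus untreated log2 difference averaged over the 17 complex V genes (y axis) at each of 26 time points in hours (x axis), for both lines, with a line at 0. The values lie below 0 at 24 of 26 time points in each line.

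By gene, 9 of 17 complex V genes fell and 1 rose in PC9, and 10 fell and 1 rose in PC9M2. Over all genes 37.4% fell and 34.8% rose in PC9, and 34% fell and 32.5% rose in PC9M2. ATP5MC1, which encodes the c subunit of the membrane rotor, ran from 12.98 to 14.09 (median 13.68) untreated and from 12.02 to 13.71 (median 12.97) with gefitinib in PC9. In PC9M2 it ran from 12.06 to 13.81 (median 13.42) and from 12.07 to 13.18 (median 12.74). The ranges overlapped in both lines. It fell, with a difference of -0.74 ± 0.12 (SE, n = 26, adjusted p = 5.02e-06, lower at 21 of 26) in PC9 and -0.68 ± 0.07 (SE, n = 26, adjusted p = 4.41e-09, lower at 23 of 26) in PC9M2. ATP5MC2 and ATP5MC3 encode the same mature c subunit. ATP5MC2 rose by 0.36 ± 0.08 in PC9 and 0.20 ± 0.05 in PC9M2. ATP5MC3 fell (-0.42 and -0.39) with its probe of largest variance, which is dim. Its bright probe, saturated on 87 of 104 PC9 arrays, gave 0.00 and -0.13. Genes for the same protein, ATP5MC1 and ATP5MC2, thus moved in opposite directions in both lines.

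The other falls in complex V were in both the catalytic head and the membrane part. ATP5F1B, the catalytic beta subunit, fell (-0.33 and -0.26), as did ATP5F1C, the central stalk gamma subunit (-0.47 and -0.35). ATP5MK, a small membrane subunit, fell, with a difference of -0.49 ± 0.11 (SE) in PC9 and -0.43 ± 0.06 in PC9M2, and ATP5MJ, another small membrane subunit, fell too (-0.42 and -0.49). ATP5PF, a peripheral stalk subunit, fell (-0.29 and -0.24). ATP5F1A, the alpha subunit, had differences of -0.06 and -0.05 and did not pass.

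The gefitinib effect grew within the course for a subset. Comparing 12 to 24 h with 0 to 11 h, 29 members differed in PC9 (12 towards higher and 17 towards lower, background 46% in all, 22.8% and 23.1%) and 22 in PC9M2 (9 and 13, background 36.7%, 17.9% and 18.8%). NDUFA5 went from a mean difference of 0.94 early to 2.60 late in PC9, and from 0.38 to 1.74 in PC9M2. ATP5MC1 went from -0.24 to -1.24 in PC9 and from -0.44 to -0.91 in PC9M2. COX7B2 went from 0.01 to -0.87 in PC9 and from -0.35 to -0.93 in PC9M2, and ATP5MK from -0.08 to -0.90 in PC9. UQCRC2 went from 0.12 to 0.64 in PC9M2, UQCR10 from -0.14 to 0.56 and NDUFC2, a membrane arm subunit, from -0.23 to 0.63. The untreated levels of these genes fell meanwhile. In that order, the fitted change from start to end was -0.80, -1.07 and -1.34 in untreated PC9M2. With gefitinib it was -0.03, 0.02 and -0.54. ATP5MC3 gave -1.04 early and 0.20 late in PC9 from its dim probe, but late minus early was -0.068 with the bright probe, -0.028 after normexp correction and -0.23 with scaling to the 75th percentile. For UQCR10 in PC9M2 the brighter probe gave a late minus early value of 0.17 and normexp correction 0.16, in place of 0.70, and neither passed. With each array scaled to its 75th percentile, the split was 8 higher and 27 lower in PC9 (24.5% and 22.4% over all genes) and 7 and 16 in PC9M2 (18% and 17.2%), and after normexp correction it was 8 and 19 in PC9 (23.5% and 22%). With scan day as a block 19 members passed in PC9 (37.5% over all genes) and 13 in PC9M2 (25.8%).

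Whether gefitinib acted differently in the 2 lines was tested directly. It passed for 13 members, 2 more positive and 11 more negative in PC9M2, where 34.1% of all genes passed (17.5% positive and 16.6% negative). The effect on NDUFA5 differed by -0.71 ± 0.13 (SE, n = 26, adjusted p = 7.08e-05). NDUFA9 (-0.35), COX6C (-0.34), COX7A2L (-0.34), NDUFC1 (-0.29), NDUFS7 (-0.25), NDUFA2 (-0.24) and NDUFS4 (-0.22) were also less raised or more lowered in PC9M2, as were NDUFB8 (-0.21) and COX6A1 (-0.14). The COX6A1 value came from a probe saturated on 91 of 104 PC9 arrays. COX6B2 differed by -0.53 from a dim probe, and by 0.0015 with its brighter probe. NDUFS8 (0.43) was less lowered in PC9M2. NDUFB9 gave 0.32 from its saturated probe, and of 14 alternatives 5 kept this call, 8 lost it and 1, scaling to the 75th percentile, turned it to -0.40. Under that scaling the split was 1 higher and 25 lower, where it was 14.8% and 18.1% over all genes.

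EGF moved few members. In PC9, 5 members passed (1 higher and 4 lower, background 25.6% in all, 11.3% higher and 14.3% lower), with 13 at an unadjusted p under 0.05. COX6B2 gave 0.55 ± 0.10 (SE, higher at 25 of 26 time points) from its dim probe, but -0.070 with its brighter probe and -0.041 after normexp correction. NDUFA3 (-0.16, but 0.024 with time points 3 h apart), NDUFB11 (-0.16), COX5B (-0.15) and NDUFA9 (-0.11) were lower. In PC9M2, NDUFA5 alone passed (background 9.07% in all, 4.16% higher and 4.92% lower), at -0.22 ± 0.04, and 5 members had an unadjusted p under 0.05. Under gefitinib, 0 members passed in PC9 (background 0.0452%, of which 0% lower) and 0 in PC9M2 (background 3.11% in all, 0.973% higher and 2.13% lower) in limma, with 5 and 9 at an unadjusted p under 0.05.

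Levels drifted over 24 h without any treatment. The spline test passed for 59 members in untreated PC9 (background 66.5%) and 50 in untreated PC9M2 (background 67.5%). Under gefitinib it passed for 53 (background 77.8%) and 38 (background 63.7%), with EGF for 60 (background 78.8%) and 62 (background 74.9%), and with both for 65 (background 83.1%) and 41 (background 67.6%). Each scan day held mostly neighbouring time points, and with scan day as a block the PC9M2 counts were 25 untreated, 8 with gefitinib, 30 with EGF and 15 with both (over all genes 39%, 27%, 48% and 34.3%), and the PC9 counts, in that order, were 52, 45, 44 and 39 (54.1%, 61%, 54.2% and 51.3%). In untreated PC9M2, NDUFA5 fell by 2.35 on the fitted curve between the start and the end of the course. Its values at 0 h were 12.09 untreated and 12.03 with gefitinib, and at 24 h 9.78 and 11.85. In PC9 its 0 h values were 9.54 untreated and 10.08 with gefitinib, and its 24 h values 9.12 and 11.66.

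Between the lines without treatment, 49 members differed (24 higher and 25 lower in PC9M2, background 68.1% in all, 30.3% higher and 37.8% lower), and with scaling to the 75th percentile the split was 37 higher and 15 lower (33.1% and 35% over all genes). With gefitinib the main split was 17 and 25 (background 64.7%, 29.9% higher and 34.8% lower). With EGF it was 25 and 24 (background 69.8%, 32.1% and 37.7%) and with both 16 and 31 (background 67.7%, 30.6% and 37.1%). Under the 75th percentile scaling these were 27 and 17 (31.5% and 34.1% over all genes), 38 and 10 (34.4% and 35.5%), and 26 and 20 (33.3% and 34.4%). In all 4 treatments alike, 14 members were higher (background 22%) and 18 lower (background 25.9%). Among the 53 members never saturated on any array, 20 were higher and 17 lower without treatment, with a median of 0.00.

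NDUFA5 was higher in PC9M2 by 1.58 ± 0.12 (SE, n = 26, adjusted p = 9.16e-13) at 26 of 26 time points without treatment, and by 0.86 with gefitinib. COX7A2L was higher by 0.77 ± 0.10, and by 0.60 with its second probe. UQCR10 gave 0.62 with one probe and 0.20 ± 0.11 with its brighter probe. COX6B2 was higher by 1.76 with its dim probe and by 0.07 with its other probe, and NDUFC2 by 0.72 with one probe and -0.17 with the other. NDUFA6 (-0.92 ± 0.08) and ATP5F1B (-0.82 ± 0.10) were lower. The brighter NDUFA6 probe gave -0.39 ± 0.07. UQCRH, the hinge protein of complex III, gave -1.14 with a probe saturated on 79 of 104 PC9 arrays, but 0.88 with scaling to the 75th percentile and 0.012 after normexp correction. NDUFB9 (-1.32) and ATP5F1E, the epsilon subunit (-1.27), were lower, while their other probes gave 0.13 and 0.72, and scaling to the 75th percentile gave 0.86 for the first NDUFB9 probe. ATP5MG gave -0.67 and 0.57, and the 4 SDHD probes ran from -0.66 to 0.29. Of 27 members with several probes, 9 disagreed in sign for this comparison. Among the paralogue pairs, COX4I1 (-0.64), COX6A1 (0.18), COX6B1 (0.33), COX7A2 (0.21), COX7B (-0.33) and COX7B2 (0.49) passed. COX4I1 turned to 0.020 with scaling to the 75th percentile. COX6A1, saturated on 91 PC9 arrays, turned to -0.22 after normexp correction and was 0.88 with that scaling. Of the others, COX4I2 (0.26) and COX8A (-0.24) did not pass, and COX6A2 (-1.26, adjusted p = 0.0482, limma) passed with 1 untreated PC9M2 array at 3.46 and the next lowest at 10.28. In complex II, SDHA (-0.26), SDHB (-0.25) and SDHD (-0.48) were lower and SDHC (0.27) higher. The brighter SDHA probe gave -0.04 ± 0.08. Of 16 alternatives, 6 lost the SDHA call and 7 the SDHC call.

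**Figure D5:**
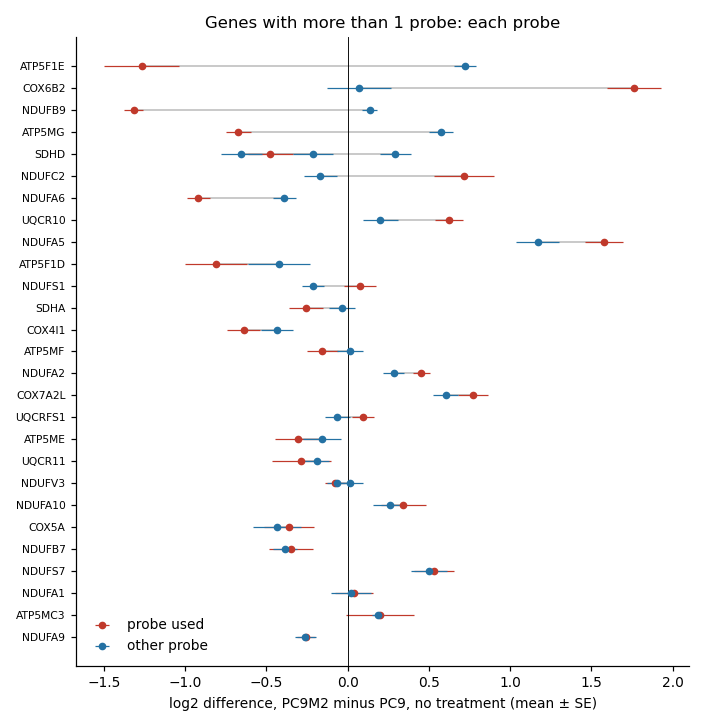
PC9M2 minus PC9 log2 difference without treatment (x axis, mean with standard error over 26 time points) for each probe of the 27 members with several probes. Both probes of each of NDUFA5, NDUFA2 and COX7A2L lie on the same side of 0, and those of ATP5F1E, NDUFB9 and ATP5MG on opposite sides.

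Genes that act with the chain were counted from lists, to be read beside the shares over all genes, 34.8% higher and 37.4% lower in PC9 and 32.5% and 34% in PC9M2. A list of 20 genes held other chain subunits, electron carriers, proteins linked to the chain and, for the larger part, ubiquinone synthesis genes. Of these 20, 6 rose and 7 fell with gefitinib in PC9 and 7 and 8 in PC9M2. Cytochrome c (CYCS), which carries electrons to complex IV, fell (-1.44 and -1.34). PDSS1, which makes the tail of ubiquinone, fell (-2.03 and -1.47), while COQ5, also of ubiquinone synthesis, rose by 1.41 and 1.32. Complex I assembly factors rose in 5 and fell in 10 of 18 in PC9 (5 and 11 in PC9M2), with NDUFAF4 falling (-1.42 and -0.68). Assembly factors of complexes II to V rose in 10 and fell in 15 of 32 (11 and 14), with UQCC3, a complex III factor, rising by 1.43 and 1.66.

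Regulators of mitochondrial biogenesis rose in 3 and fell in 14 of 20 in PC9 (2 and 11 in PC9M2), where 37.4% and 34% of all genes fell and 34.8% and 32.5% rose. The same shares apply to the lists that follow. Among those that fell in both lines were MYC (-1.74 and -1.19), TWNK, the helicase of mitochondrial DNA (-1.58 and -0.93), and ESRRA, an oestrogen-related receptor (-0.30 in both lines). NRF1 and TFAM, which activates mitochondrial DNA transcription, fell (-0.30 and -0.32) in PC9, and their differences of 0.02 and -0.13 in PC9M2 did not pass. Glycolysis genes rose in 2 and fell in 13 of 20 in PC9 (median -0.56) and rose in 0 and fell in 19 in PC9M2 (median -0.73), with HK2, the hexokinase bound to mitochondria, falling (-1.67 and -1.49). PDK4, a kinase that inactivates pyruvate dehydrogenase, rose by 2.18 and 2.66, and PDK1, a kinase of the same enzyme, fell (-2.40 and -2.15). Mitochondrial ribosomal proteins rose in 25 and fell in 32 of 75 (18 and 36), cytosolic ribosomal proteins rose in 34 and fell in 5 of 81 (27 and 3), and proteasome subunits rose in 6 and fell in 22 of 37 (2 and 27). Citric acid cycle and pyruvate dehydrogenase genes rose in 4 and fell in 8 of 17 (3 and 8), and antioxidant and uncoupling genes rose in 5 and fell in 6 of 15 (6 and 5).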

How the data were processed

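Total RNA of PC9 and PC9M2 cells was measured on 44K whole human genome arrays with Cy3. The authors deposited, for each array, background-subtracted signal intensities written by Feature Extraction 10.5.1.1, and a table of intensities that they quantile normalized over the arrays. Here the scanner intensities were quantile normalized over 208 arrays and 45015 features, as in the methods, given a floor of 1 and set on a log2 scale. Outlier spots (0.304%) were left out. A gene was represented by its probe of largest variance, and tested where some course had at least 13 of 26 arrays with that probe well above background. Symbols came from the RefSeq accessions of the probes, and 24794 of 41000 probes had one. Promoters came from RefSeq in GRCh38.p14.

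Courses were compared at matched times with limma 3.58.1 in R 4.3.3, two-sided, with Benjamini-Hochberg adjustment over all 13261 tested genes at 0.05. The spline had 4 degrees of freedom. Pairs shared a slide and a time label between treatments, and a time label between lines. Deviations of paired arrays correlated over 0.1 in 21 (PC9) and 25 (PC9M2) of 26 pairs for gefitinib, 26 of 26 for EGF in each line and 19 of 26 between untreated lines. The analysis was tested on simulated data whose noise was independent between arrays, so this does not cover the likeness of neighbouring time points. The members and lists were chosen with earlier results of these data known. Genes named are the largest changes per complex and comparison, complex II, paralogue pairs, and members whose probes disagree. Any other member given by name was chosen after its values were seen. Alternatives covered normalization, background, floor, filters, probe choice, saturated and flagged spots, scan day, pairing, time points and the test. The labels call the resistant line and the drug by other names, matched through doses and times. For the normexp alternative median signals were used in place of mean signals.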

Additional observations from a re-analysis of the deposited data

Results flagged for a closer look

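The gefitinib effect differed between PC9M2 and PC9 for 13 members by limma's test of the difference itself. Among the named genes, the difference (PC9M2 minus PC9, log2 scale) was 0.43 for NDUFS8, 0.32 for NDUFB9, -0.71 for NDUFA5, -0.53 for COX6B2, -0.35 for NDUFA9, -0.34 for COX6C and -0.34 for COX7A2L. The NDUFB9 probe was saturated on 80 of 104 PC9 arrays, and COX6B2 was well above background on 16 to 26 of the 26 arrays of a course. The NDUFB9 difference kept its call in 5 of 14 alternatives and turned to -0.40 with scaling to the 75th percentile, and that of COX6B2 was 0.0015 with its brighter probe.

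The gefitinib effect also differed between 0 to 11 h and 12 to 24 h of a course. In PC9, 29 members differed, with late minus early values of 1.66 for NDUFA5, 1.23 for ATP5MC3, -1.01 for ATP5MC1, -0.88 for COX7B2 and -0.81 for ATP5MK. The ATP5MC3 value came from a dim probe and turned in sign under 3 of 15 alternatives, the lowest at -0.23. In PC9M2, 22 differed, with 1.36 for NDUFA5, 0.86 for NDUFC2, 0.70 for UQCR10, -0.57 for COX7B2 and 0.53 for UQCRC2. With its brighter probe UQCR10 gave 0.17, which did not pass.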

How the results depend on the processing

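Of 333 counts of members under an alternative, 292 stayed within 1.5 times the value reported. All 156 mean differences over members moved by less than 1 SD of their spread over time points. That spread is wide (0.26 for the untreated lines), and some means changed sign. The mean line difference without treatment, -0.06 in the main analysis, ran from -0.083 to 0.20. The mean gefitinib difference ran from -0.036 to 0.022 in PC9 and from -0.14 to -0.067 in PC9M2. Of 1545 values for single genes, 1382 kept their side of the threshold and, where the main value passed, also their direction. For main values that did not pass, a change of direction was not counted. NDUFA5 stayed between 1.43 and 1.84 in PC9 and between 0.94 and 1.1 in PC9M2 over 15 alternatives, and ATP5MC1 between -0.79 and -0.68 and between -0.77 and -0.67. The causes of the changes below were not tested.

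With normexp correction, values turned to -0.028 for ATP5MC3 late minus early in PC9, -0.041 for COX6B2 with EGF in PC9, and, between the untreated lines, -0.22 for COX6A1, -0.0037 for COX6B2, -0.22 for NDUFC2 and 0.012 for UQCRH. With the probe of highest mean they turned to 0.72 for ATP5F1E, 0.57 for ATP5MG, -0.17 for NDUFC2 and 0.29 for SDHD between the lines, -0.068 for ATP5MC3 late minus early, -0.070 for COX6B2 with EGF and 0.0015 for the COX6B2 difference of gefitinib effects. With scaling to the 75th percentile they turned to -0.23 for ATP5MC3 late minus early, 1.16 for ATP5MG, 0.020 for COX4I1, 0.86 for NDUFB9 and 0.88 for UQCRH between the lines, and, for NDUFB9, 0.13 for gefitinib in PC9 and -0.40 for the difference of effects. With time points 3 h apart NDUFA3 with EGF in PC9 turned to 0.024.

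Counts moved as follows. Most are given without the share over all genes under the same setting, so they are no result about the members. For EGF in PC9 the count was 8 with the mean of all probes, 3 with no filter, 0 without the replicate block, 2 with scaling to the 75th percentile, 8 with scan day as a block and 1 with time points 3 h apart. For EGF in PC9M2 it was 2 with normexp and 2 with the methods' t-test, 0 without the replicate block and 0 with time points 3 h apart. EGF under gefitinib in PC9M2 gave 3 with normexp and 1 with scan day as a block. Without the replicate block the difference of the gefitinib effects passed for 2 members, and late minus early for 18 in PC9 and 6 in PC9M2. Scaling to the 75th percentile gave 26 for the difference of the effects. A one-sided test for higher levels in PC9M2 gave 23, 17, 25 and 16 members without treatment, with gefitinib, with EGF and with both. With scan day as a block the change over time passed for 25, 8, 30 and 15 in PC9M2 in that order and for 39 in PC9 with both, late minus early for 19 and 13, and the line difference for 32 without treatment, 26 with gefitinib and 29 with both. With time points 3 h apart, 9 in number, gefitinib gave 12 in PC9 and, with EGF, 34 in PC9M2, the difference of the effects 0, late minus early 4 and 2, and the line difference 19, 21, 19 and 24. Without 10, 11 and 12 h, an alternative chosen after seeing the data, EGF gave 3 in each line. With 75th percentile scaling, gefitinib with EGF in PC9M2 split into 12 higher and 49 lower, beside 40.1% and 34.8% of all genes.

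Neighbouring time points resembled each other. The gefitinib difference of a member correlated with that of the next time point (median 0.24 for PC9, 0.14 for PC9M2), which p-values do not allow for. With EGF present these medians were 0.30 and 0.36. They were higher for the line differences, at 0.42 without treatment, 0.45 with gefitinib, 0.50 with EGF and 0.54 with both. For the EGF effects they lay from -0.08 to 0.04. Signals at the saturation limit bound the PC9 values of 27 members, and COX4I2, COX6B2 and the reported ATP5MC3 probe lay near background.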
